A study of Mus musculus with 19 samples.

Results

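The NF-κB subunits and their inhibitors described here are 10 genes, chosen by name. They are the 5 subunits *Nfkb1*, *Nfkb2*, *Rel*, *Rela* and *Relb*, the 3 classical IκB inhibitors *Nfkbia*, *Nfkbib* and *Nfkbie*, and the 2 nuclear IκB proteins *Nfkbiz* and *Bcl3*. All 10 were found among the 56980 genes of the count table, and all 10 were among the 18739 genes that passed the filter on low counts. They were measured by RNA-sequencing of CD11b+ cells from the brains of 19 male mice, 1 library per mouse, aged 3 to 4 months. The groups were 5 wildtype and 5 *PARK7*/DJ-1 KO mice taken 6 h after LPS was given intraperitoneally at 4 μg per g of weight, and 4 wildtype and 5 KO mice given vehicle (PBS in the sample names, saline in the protocol), called baseline here. LPS is a cell wall component of Gram-negative bacteria that is sensed by Toll-like receptor 4. The KO is the gene trap *Park7* Gt(XE726)Byg of a B6;129P2 stock backcrossed to C57BL/6NCrl, carried in every cell of the animal and not only in microglia, and the wildtype mice were its littermates. Olfactory bulb and cerebellum were removed, and cells were isolated magnetically by CD11b, an integrin chain that microglia share with monocytes, neutrophils and other macrophages. The labels call the cells primary microglia. The study compared how CD11b+ cells with and without DJ-1, a protein that protects cells from oxidative stress, respond to acute inflammation.

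NF-κB is a family of dimeric transcription factors. Rela (p65), Rel (c-Rel) and Relb carry transactivation domains, whereas *Nfkb1* and *Nfkb2* encode precursors that are processed to the DNA-binding subunits p50 and p52. In resting cells the IκB proteins hold the dimers in the cytoplasm. After stimulation of Toll-like receptor 4, the IκB kinase complex phosphorylates IκBα, which is degraded, and the dimers enter the nucleus and bind κB sites. Several NF-κB and IκB genes are themselves known targets of the factor, so that the inhibitors are made anew as part of a negative feedback. A slower noncanonical arm, driven by receptors such as CD40 and the lymphotoxin β receptor, acts through the processing of the *Nfkb2* product and through Relb. Much of this control acts on protein, which was not measured here.

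The libraries held 11936364 to 22788884 counts, so that 3 counts in a library corresponded to 0.139 to 0.256 CPM, the TMM-normalized count relative to library size, a limit that covers counting error only. *Park7* was at 20.6 to 32.1 CPM in the wildtype mice and at 0.5 to 5.4 CPM in the KO mice. Markers are called higher or lower after LPS at an adjusted p-value under 0.05 in edgeR with a |log2FC| of at least 0.5. By this rule 18.4% of all genes tested were higher and 17.4% lower in wildtype, and 20.1% and 19% in KO. All 9 microglial markers tested were detected, and all 9 were lower after LPS in both genotypes. Their summed level was 26957 to 39445 CPM at baseline and 10348 to 16444 CPM after LPS in wildtype mice. Markers of monocytes were higher after LPS for 7 of 8 genes in both genotypes, with a sum of 189 to 206 CPM at baseline and 473.5 to 835 CPM after LPS in wildtype, and of 149 to 209.7 CPM and 306 to 643 CPM in KO. The 12 neutrophil markers were mixed, with 6 increased and 1 decreased by LPS in wildtype mice and 7 and 1 in KO mice. Their sum was 486 to 676.5 CPM and 554 to 876.5 CPM in wildtype, and 429 to 788 CPM and 339.6 to 814.5 CPM in KO. Of 6 markers of border macrophages 4 were lower in each genotype. Of 10 lymphocyte markers 3 passed the filter, the sum of all 10 was at most 21.3 CPM in any library, and *Cd3g* was at 0 in both KO groups. In such bulk samples fewer cells of a type and less RNA per cell cannot be told apart, and the part of these cells in the results below was not tested.

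Libraries that stood apart were found in every group. Replicate 5 of the LPS-treated KO mice correlated with the others of its group at 0.877 to 0.946 (log2 CPM over genes, which are not independent replicates), and no other pair of replicates fell below 0.943. Markers of other brain cells summed to 15653 CPM in replicate 1 of the LPS-treated KO mice, to 13806 CPM in replicate 2 of the wildtype baseline, to 10012 CPM in replicate 1 of the KO baseline and to 9239 CPM in replicate 2 of the LPS-treated wildtype mice, against 1032 to 5562 CPM in the other 15 libraries. Results are therefore also given without these 5 libraries.

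LPS raised nearly the whole gene group in both genotypes. The threshold was an adjusted p-value under 0.05 with a |log2FC| no smaller than 0.5 in edgeR's quasi-likelihood test. By it, 9 of the 10 genes rose in wildtype mice, where 18.4% of all genes tested rose, and 10 of 10 rose in KO mice, where 20.1% of all genes rose. None of the 10 fell, against 17.4% and 19% of all genes, and DESeq2 gave the same 4 counts. Without the 5 libraries that stood apart, 10 of 10 rose in each genotype, and the share of all genes in that fit was not counted. *Rel* in wildtype, the gene that did not pass with all mice, had an unadjusted p-value of 0.0386 in edgeR with all mice. With all mice the median log2FC of the 10 genes was 2.10 in wildtype and 2.35 in KO, against -0.06 and -0.01 over all genes tested. The values of LPS-treated and baseline mice did not overlap for 9 of the 10 genes in wildtype and for 9 of 10 in KO, all higher, with *Rel* as the exception in both. Over all genes, 20.8% lay higher without overlap and 17% lower in wildtype, and 16.2% and 16.6% in KO. The increase was smallest for *Rel* and *Rela* and largest for *Bcl3*.

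**Figure D1:**
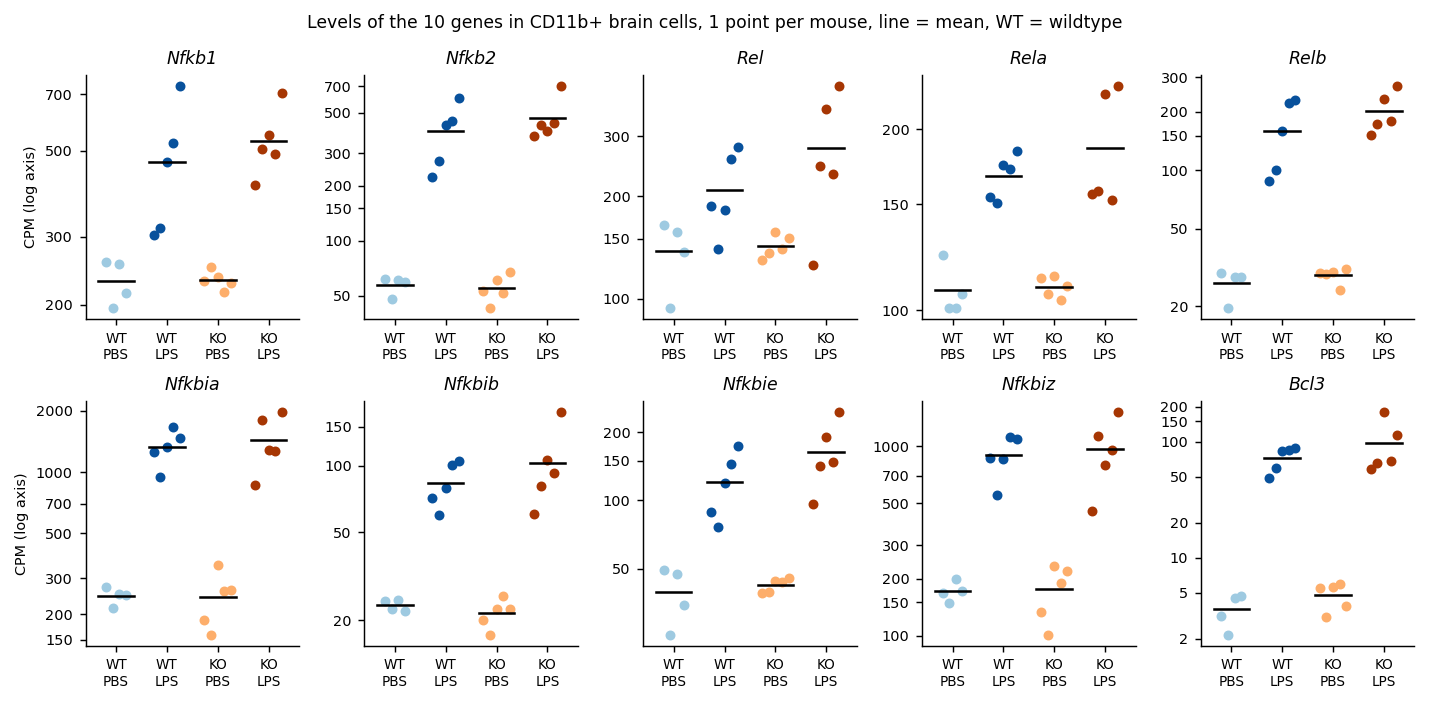
CPM of each of the 10 genes on a log axis, with 1 point per mouse, a line at the group mean, and the wildtype (WT) and KO groups at baseline (PBS) and 6 h after LPS. The LPS-treated mice lie above all baseline mice of their genotype for every gene but *Rel*, and KO and wildtype mice overlap throughout.

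Sequence around the transcription start was examined because these genes rose together and several are known to be driven by NF-κB itself. The windows run from 250 bases before to 50 bases after a RefSeq start site, taken from a RefSeq table built on GRCm38.p6 and placed on GRCm39 by an exact match of the sequence. Windows were found for 7 of the 10 genes, and *Nfkb1*, *Relb* and *Nfkbiz* had no entry. The κB motif, searched on both strands, occurred in the windows of 5 of the 7 genes, namely *Nfkb2*, *Rel*, *Nfkbia*, *Nfkbie* and *Bcl3*, and not in those of *Rela* and *Nfkbib*. Over all genes with a window it occurred in 9.55% of 27025 genes and in 8.46% of 32851 windows. A match is only a run of letters, and binding was not measured. 5 windows are shown, 4 that hold the motif and, for comparison, that of *Rela*, which had a small response. They are printed 5′ to 3′ on the strand of the gene, with motif matches in capitals, where overlapping matches form 1 run.
Nfkbia (chr12:55539383-55539682, minus strand): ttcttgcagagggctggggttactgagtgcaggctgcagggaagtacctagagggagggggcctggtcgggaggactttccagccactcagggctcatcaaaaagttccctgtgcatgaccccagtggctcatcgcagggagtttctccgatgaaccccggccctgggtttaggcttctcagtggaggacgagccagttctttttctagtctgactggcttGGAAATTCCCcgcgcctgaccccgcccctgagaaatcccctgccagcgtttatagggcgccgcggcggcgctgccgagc
Nfkb2, first of 3 windows (chr19:46292926-46293225, plus strand): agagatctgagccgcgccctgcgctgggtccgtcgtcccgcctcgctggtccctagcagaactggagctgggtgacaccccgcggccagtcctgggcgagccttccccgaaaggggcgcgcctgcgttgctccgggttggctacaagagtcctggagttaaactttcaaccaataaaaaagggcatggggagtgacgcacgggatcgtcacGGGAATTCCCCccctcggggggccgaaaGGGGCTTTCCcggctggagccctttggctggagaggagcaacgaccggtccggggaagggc
Nfkbie (chr17:45866376-45866675, plus strand): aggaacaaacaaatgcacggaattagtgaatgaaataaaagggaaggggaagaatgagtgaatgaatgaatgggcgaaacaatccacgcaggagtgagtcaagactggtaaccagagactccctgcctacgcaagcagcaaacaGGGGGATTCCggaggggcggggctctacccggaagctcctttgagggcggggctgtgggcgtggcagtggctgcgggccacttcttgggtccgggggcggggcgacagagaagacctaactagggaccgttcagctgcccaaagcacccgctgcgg
Bcl3 (chr7:19556631-19556930, minus strand): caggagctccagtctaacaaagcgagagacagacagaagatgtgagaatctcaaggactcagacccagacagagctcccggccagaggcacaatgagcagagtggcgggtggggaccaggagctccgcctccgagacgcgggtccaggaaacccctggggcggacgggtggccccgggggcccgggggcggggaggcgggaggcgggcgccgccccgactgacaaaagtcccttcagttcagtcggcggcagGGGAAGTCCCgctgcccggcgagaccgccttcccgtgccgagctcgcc
Rela (chr19:5687319-5687618, plus strand): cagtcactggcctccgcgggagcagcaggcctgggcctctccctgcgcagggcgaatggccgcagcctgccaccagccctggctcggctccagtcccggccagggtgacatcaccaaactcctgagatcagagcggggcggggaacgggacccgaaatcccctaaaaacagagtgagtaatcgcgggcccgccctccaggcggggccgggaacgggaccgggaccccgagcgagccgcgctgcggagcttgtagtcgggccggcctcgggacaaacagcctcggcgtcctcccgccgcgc
The match in *Nfkbia* began 29 bases before the start site and that in *Nfkbie* 106 bases before it. In *Nfkb2* the matches of this window began 39, 38 and 11 bases before the start, and both other windows of the gene also held the motif. Those windows overlap each other and share the match GGGACTTTCC, which is a single site. In *Bcl3* the match lay on the transcribed side, from base 2 after the start. In *Rel*, not printed, overlapping matches began 92 and 91 bases before the start. The motif was thus found both in *Rel*, which had the smallest response in wildtype mice, and in *Bcl3*, which had the largest.

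*Rela* (ENSMUSG00000024927, chr19:5687493-5698161, plus strand) encodes p65, the main transactivating subunit of the canonical pathway. Its level in wildtype mice was 123, 101, 101 and 106 CPM at baseline and 154, 151, 174, 172 and 184 CPM after LPS. In KO mice it was 113, 106, 114, 104 and 109 CPM at baseline and 156, 158, 229, 152 and 236 CPM after LPS. Every LPS-treated mouse was above every baseline mouse, but the step was small, and 2 of the 5 LPS-treated KO mice stood well above the other 3. The log2FC was 0.63 (SE 0.13, adjusted p = 0.000639) in wildtype and 0.77 (SE 0.12, adjusted p = 3.77e-05) in KO, 1.55-fold and 1.70-fold. Of the 10 genes *Rela* varied least between mice in the LPS-treated wildtype mice (SD of log2 CPM 0.12) and in the KO mice at baseline (0.056).

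*Nfkb1* (ENSMUSG00000028163, chr3:135290264-135397742, minus strand) encodes p105, the precursor of p50. It was at 259, 196, 255 and 214 CPM at baseline and at 304, 316, 467, 523 and 738 CPM after LPS in wildtype mice. In KO mice the values were 231, 251, 236, 216 and 228 CPM and 407, 507, 550.3, 490.0 and 705 CPM. The LPS-treated wildtype mice spread widely, with replicates 1 and 2 just above the baseline range and replicate 5 far above it. The log2FC was 1.02 (SE 0.21, adjusted p = 0.000694) in wildtype and 1.20 (SE 0.20, adjusted p = 6.44e-05) in KO, 2.03-fold and 2.29-fold.

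*Rel* (ENSMUSG00000020275, chr11:23686847-23721264, minus strand) encodes c-Rel, a subunit best known from lymphoid and myeloid cells. It was at 165, 93.9, 157 and 137 CPM at baseline and 187, 140.5, 182, 258 and 279 CPM after LPS in wildtype mice, and at 130.2, 137, 157, 140.3 and 151 CPM and 126, 246, 359.9, 232 and 422 CPM in KO mice. The groups overlapped in both genotypes. In wildtype, LPS replicate 2 was below 2 of the 4 baseline mice, and in KO, LPS replicate 1 was below all 5 baseline mice. Both of these libraries were among those with high markers of other brain cells. The log2FC was 0.60 (SE 0.27, adjusted p = 0.0838) in wildtype, which did not pass the threshold, and 0.95 (SE 0.25, adjusted p = 0.00418) in KO, which did. Without LPS replicate 2 the wildtype value was 0.73 (adjusted p = 0.0409), and without the 5 libraries that stood apart it was 0.55 (adjusted p = 0.0312). With a score of other brain cell markers as a covariate it was 0.64. In each of these 3 fits 10 of 10 genes passed in wildtype. In the other direction, the value was 0.47 without LPS replicate 5 (adjusted p = 0.199) and 0.46 without baseline replicate 2, and it did not pass in any other alternative run.

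*Nfkb2* and *Relb*, the pair of the noncanonical arm, rose far more than the other 3 subunits. *Nfkb2* (ENSMUSG00000025225, chr19:46292759-46303812, plus strand) encodes p100, which is both the precursor of p52 and an inhibitor in its own right. It went from 61.7, 47.9, 60.6 and 59.2 CPM at baseline to 223, 274, 427, 450.3 and 607 CPM after LPS in wildtype mice. In KO mice it went from 52.7, 42.6, 61.1, 51.4 and 67.4 CPM to 375, 428, 398, 438 and 705 CPM. The lowest LPS-treated mouse was more than 3 times the highest baseline mouse in wildtype, and the KO groups were further apart. The log2FC was 2.79 (SE 0.26, adjusted p = 1.13e-07) in wildtype and 3.09 (SE 0.24, adjusted p = 8.88e-09) in KO, 6.91-fold and 8.52-fold. Of the exon bases of *Nfkb2*, 24.5% overlap exons of *Psd* and 13.7% those of 4833438C02Rik on the opposite strand. The library kit was stranded, but whether the counting used the strand is not given in the sources used here, so reads of these genes may be mixed.

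*Relb* (ENSMUSG00000002983, chr7:19339017-19363425, minus strand), the partner of p52, was at 29.7, 19.6, 28.2 and 28.3 CPM at baseline and 87.9, 100.4, 159, 222 and 230.2 CPM after LPS in wildtype mice. In KO mice it was at 29.6, 29.3, 30.1, 24.3 and 31.0 CPM and 152, 172, 233, 179.6 and 272 CPM. The baseline mice were close together, apart from wildtype replicate 2 and KO replicate 4, whereas the LPS-treated wildtype mice fell into a lower pair and a higher pair with 1 mouse between them. The log2FC was 2.60 (SE 0.27, adjusted p = 3.17e-07) in wildtype and 2.80 (SE 0.25, adjusted p = 3.43e-08) in KO, 6.04-fold and 6.98-fold.

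All 3 classical inhibitors rose in both genotypes. *Nfkbia* (ENSMUSG00000021025, chr12:55535332-55539432, minus strand) encodes IκBα, the inhibitor that is degraded and resynthesized fastest. It was at 272, 214, 252 and 248 CPM at baseline and 1259, 944, 1323, 1667 and 1477 CPM after LPS in wildtype mice, and at 188, 159, 348, 261 and 264 CPM and 865, 1806, 1278, 1265 and 1975 CPM in KO mice. Per exon length its RNA was the most abundant of the 10 genes in all 4 groups, and the KO mice differed among themselves more than the wildtype mice at baseline. The log2FC was 2.44 (SE 0.26, adjusted p = 3.97e-07) in wildtype and 2.56 (SE 0.24, adjusted p = 5.94e-08) in KO, 5.41-fold and 5.89-fold.

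*Nfkbib* (ENSMUSG00000030595, chr7:28457486-28466937, minus strand) encodes IκBβ, the inhibitor known for a slower turnover. It was at 24.4, 22.6, 24.8 and 22.2 CPM at baseline and 71.6, 60.0, 79.1, 101 and 105 CPM after LPS in wildtype mice, and at 20.1, 17.3, 22.5, 25.8 and 22.6 CPM and 60.6, 80.6, 105, 92.8 and 174 CPM in KO mice. KO replicate 5 after LPS was well above the other mice. The log2FC was 1.83 (SE 0.24, adjusted p = 5.61e-06) in wildtype and 2.25 (SE 0.22, adjusted p = 1.66e-07) in KO. On the opposite strand, Gm71901 overlaps 14.3% and *Ccer2* 13.3% of its exon bases. *Nfkbie* (ENSMUSG00000023947, chr17:45866585-45874661, plus strand) encodes IκBε. It was at 49.5, 25.6, 47.4 and 34.5 CPM at baseline and 89.0, 76.3, 119, 145 and 174 CPM after LPS in wildtype mice, and at 39.2, 39.6, 44.2, 43.7 and 45.5 CPM and 96.9, 142, 189.9, 147 and 246 CPM in KO mice. Its log2FC was 1.62 (SE 0.27, adjusted p = 6.5e-05) in wildtype and 1.95 (SE 0.25, adjusted p = 2.91e-06) in KO, the smallest of the 3 inhibitors in both.

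The 2 nuclear IκB proteins act on NF-κB at the promoter rather than in the cytoplasm. *Nfkbiz* (ENSMUSG00000035356, chr16:55631738-55659262, minus strand) encodes IκBζ, which is needed for a set of secondary response genes such as that of interleukin 6. It was at 169, 149.7, 200.4 and 171 CPM at baseline and 862, 554, 851, 1116 and 1087 CPM after LPS in wildtype mice. In KO mice it was at 133, 101, 234, 190.1 and 221 CPM and 457, 1134, 791, 949 and 1515 CPM. The mice ranked much as they did for *Nfkbia*, and the highest LPS-treated KO mouse had over 3 times the level of the lowest. The log2FC was 2.37 (SE 0.31, adjusted p = 5.41e-06) in wildtype and 2.46 (SE 0.29, adjusted p = 1.05e-06) in KO.

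*Bcl3* (ENSMUSG00000053175, chr7:19541553-19557570, minus strand) encodes a partner of p50 and p52 homodimers and was the gene with the largest change of the 10. It was at 3.13, 2.18, 4.47 and 4.72 CPM at baseline and 49.1, 59.8, 82.8, 85.6 and 88.6 CPM after LPS in wildtype mice. In KO mice it was at 5.46, 3.10, 5.64, 5.97 and 3.83 CPM and 58.1, 65.3, 181, 68.6 and 115 CPM. Even the lowest LPS-treated mouse of each genotype was several times above the highest baseline mouse, and KO replicate 3 was above all others after LPS. The log2FC was 4.34 (SE 0.37, adjusted p = 3.91e-08) in wildtype and 4.35 (SE 0.34, adjusted p = 6.92e-09) in KO, 20.2-fold and 20.3-fold.

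**Figure D2:**
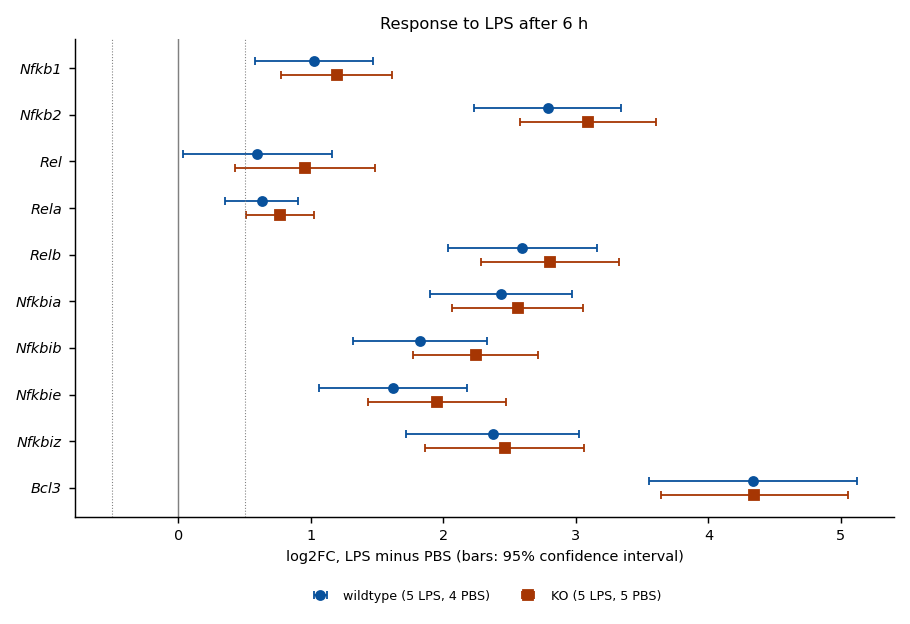
log2FC of LPS against baseline for the 10 genes in wildtype (circles) and KO mice (squares), with 95% confidence intervals from the edgeR fit and dotted lines at -0.5 and 0.5. The values run from 0.60 (*Rel*, wildtype) to 4.35 (*Bcl3*, KO), and the intervals of the genotypes overlap for every gene.

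Levels were compared between genes as RPKM, which is CPM per kilobase of merged exons. In wildtype mice at baseline *Nfkbia* stood at 127 ± 12.4 RPKM (SD, n = 4), above all the others. *Rela* (32.9 ± 3.28 RPKM) and *Nfkbiz* (30.7 ± 3.73 RPKM) followed and overlapped each other. Next came *Nfkb1* (18.0 ± 2.40 RPKM) and *Rel* (17.8 ± 4.11 RPKM), which overlapped as well. *Nfkbib* (9.96 ± 0.552 RPKM), *Nfkbie* (9.36 ± 2.69 RPKM) and *Nfkb2* (7.26 ± 0.808 RPKM) overlapped from one to the next. *Relb* (5.20 ± 0.911 RPKM) and *Bcl3* (0.692 ± 0.227 RPKM) were lowest, each below the range of the gene before. The KO mice had the same order at baseline except that *Rel* came before *Nfkb1* and *Nfkbie* before *Nfkbib*, neighbours whose ranges overlapped.

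After LPS *Nfkbia* (689 ± 139 RPKM, SD, n = 5) and *Nfkbiz* (159 ± 40.4 RPKM) of the wildtype mice stood above the rest without overlap. The 7 genes that followed, from *Rela* (51.0 ± 4.29 RPKM) and *Nfkb2* (50.1 ± 19.3 RPKM) through *Nfkb1*, *Nfkbib*, *Relb* and *Nfkbie* to *Rel* (27.0 ± 7.39 RPKM), each overlapped their neighbour. *Bcl3*, at 14.0 ± 3.36 RPKM, was last. In KO mice after LPS *Nfkbia* was again alone at the top (742 ± 232 RPKM, SD, n = 5), and all 9 other genes overlapped their neighbours. The length used matters for *Nfkb1*, whose merged exons span 12848 bases and whose longest protein-coding transcript 4802 bases, and for *Bcl3*, with 5241 and 2083 bases. With the transcript lengths, *Nfkb1* ranked 2 at wildtype baseline and 3 after LPS. *Bcl3* was then not last after LPS, at 35.1 RPKM against 27.0 RPKM for *Rel* in wildtype mice and 46.9 against 35.7 RPKM in KO mice, and these genes overlapped in both genotypes.

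The make-up of the subunit RNA shifted with LPS. In wildtype mice *Rela* made up 40.8 ± 3.51% (SD, n = 4) of the summed subunit RPKM at baseline and 27.3 ± 5.58% (SD, n = 5) after LPS, with mice at 40.7, 45.2, 36.6 and 40.6% and at 33.6, 32.1, 26.8, 23.1 and 20.7%. *Nfkb2* went from 8.95 ± 0.406% to 25.0 ± 3.18% and *Relb* from 6.38 ± 0.551% to 15.6 ± 2.66%. Their shares thus grew at the cost of *Rela*, of *Rel* (21.7 ± 2.75% to 13.9 ± 2.10%) and of *Nfkb1* (22.1 ± 1.15% to 18.3 ± 1.70%), although none of these fell in level. In KO mice *Rela* had 40.5 ± 1.14% and 24.6 ± 2.64% (SD, n = 5 each), *Nfkb2* 8.41 ± 1.21% and 25.6 ± 3.32%, and *Relb* 6.87 ± 0.436% and 17.0 ± 0.660%. For *Rela*, *Nfkb2* and *Relb* the shares of baseline and LPS-treated mice did not overlap in either genotype. The shares are a description, with no test, and their order depends on the length used. With transcript in place of exon length, *Nfkb1* was the largest part in wildtype mice, with 40.0 ± 1.64% at baseline (SD, n = 4) and 33.5 ± 2.39% after LPS (SD, n = 5). *Rela* then had 32.0 ± 2.82% and 21.8 ± 4.88%, and *Nfkb2* 6.78 ± 0.321% and 19.2 ± 2.11%.

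The inhibitor also gained on its main target at the RNA level. The ratio of *Nfkbia* to *Rela* RPKM was 3.59 to 4.22 at baseline and 10.6 to 16.4 after LPS in wildtype mice, and 2.52 to 5.17 and 9.36 to 19.4 in KO mice. The ratio of *Nfkb2* to *Nfkb1* was 0.387 to 0.449 and 1.19 to 1.49 in wildtype, and 0.276 to 0.481 and 1.18 to 1.63 in KO. With exon length it was below 1 in all 9 baseline mice and above 1 in all 10 LPS-treated mice, but with transcript length it was 0.499 to 0.622 in wildtype and 0.492 to 0.680 in KO after LPS, below 1 in all 19 mice. The rise of the ratio with LPS, without overlap between baseline and LPS-treated mice, was found with either length. The sum of the 5 subunits was 81.2 ± 10.3 RPKM (SD, n = 4) at baseline and 196 ± 56.1 RPKM (SD, n = 5) after LPS in wildtype. In KO it was 82.6 ± 3.64 and 233 ± 58.8 RPKM (SD, n = 5 each).

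**Figure D3:**
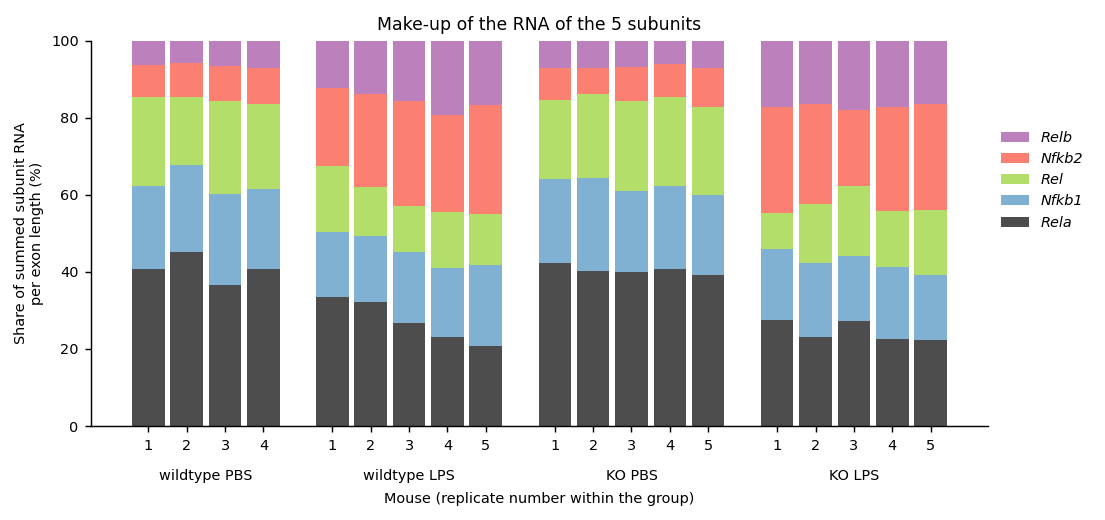
Share in percent of each of the 5 subunits in their summed RPKM, 1 bar per mouse, grouped by genotype and treatment. The part of *Nfkb2* widens from 8.95% on average at baseline to 25.0% after LPS in wildtype mice and from 8.41% to 25.6% in KO mice, and that of *Rela* at the bottom shrinks.

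The loss of DJ-1 left no difference in these genes that passed the thresholds. After LPS, 0 of the 10 genes differed between KO and wildtype mice in edgeR's quasi-likelihood test, taking an unadjusted p-value under 0.05 together with a |log2FC| no smaller than 0.5, where 1.31% of all genes did. Without the limit on fold change the count was 0 as well (2.57% of all genes), the adjusted p-value was 0.99996 for each, and DESeq2 also gave 0. The KO and wildtype mice overlapped for all 10 genes, whereas 0.0587% of all genes lay higher and 0.16% lower in KO without overlap. The log2FC of KO against wildtype was nevertheless positive for all 10, from 0.11 to 0.45 with a median of 0.27, against 0.02 over all genes. It was largest for *Nfkbie*, at 0.45 (95% confidence interval -0.06 to 0.95). The values of *Bcl3*, 0.42 (95% confidence interval -0.19 to 1.02), and *Rel*, 0.41 (95% confidence interval -0.12 to 0.93), came next. For *Nfkbia* it was 0.11 (95% confidence interval -0.36 to 0.58) and for *Rela* 0.16 (95% confidence interval -0.10 to 0.41), the narrowest interval. The upper bounds ran from 0.41 (*Rela*) to 1.02 (*Bcl3*) and are the largest increases that these intervals include. The comparisons between and within genotypes share mice and are not independent of each other.

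Single libraries decided part of these values. KO replicate 5, which had the highest level of its group for 9 of the 10 genes, was the library with low correlation to its group. Without it the value for *Nfkbib* came to 0.03, that for *Nfkb2* to 0.05, those for *Nfkb1* and *Rela* to 0.06, that for *Rel* to 0.20 and that for *Nfkbie* to 0.26, and those for *Nfkbia* and *Nfkbiz* turned to -0.03 and -0.10. The value for *Bcl3* rested on KO replicate 3, the highest of its group for that gene, without which it was 0.07, and *Rela* was 0.07 there too. Without wildtype replicate 2 *Nfkbiz* was at -0.01. Without the 5 libraries that stood apart, *Nfkb2* (-0.03), *Nfkbia* (-0.0016) and *Nfkbiz* (-0.05) were below 0, and *Nfkbie* was 0.26 (95% confidence interval -0.18 to 0.70). In the other direction, 2 of 10 genes passed the threshold when wildtype replicate 5 was left out (1.51% of all genes in that fit), *Nfkbie* with 0.62 (95% confidence interval 0.10 to 1.13) and *Relb* with 0.50 (95% confidence interval 0.02 to 0.99). Likewise 2 of 10 passed without KO replicate 1 (1.88% of all genes), *Nfkbie* with 0.59 (95% confidence interval 0.11 to 1.07) and *Rel* with 0.60 (95% confidence interval 0.16 to 1.04). The adjusted p-value of each in edgeR was 1.

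**Figure D4:**
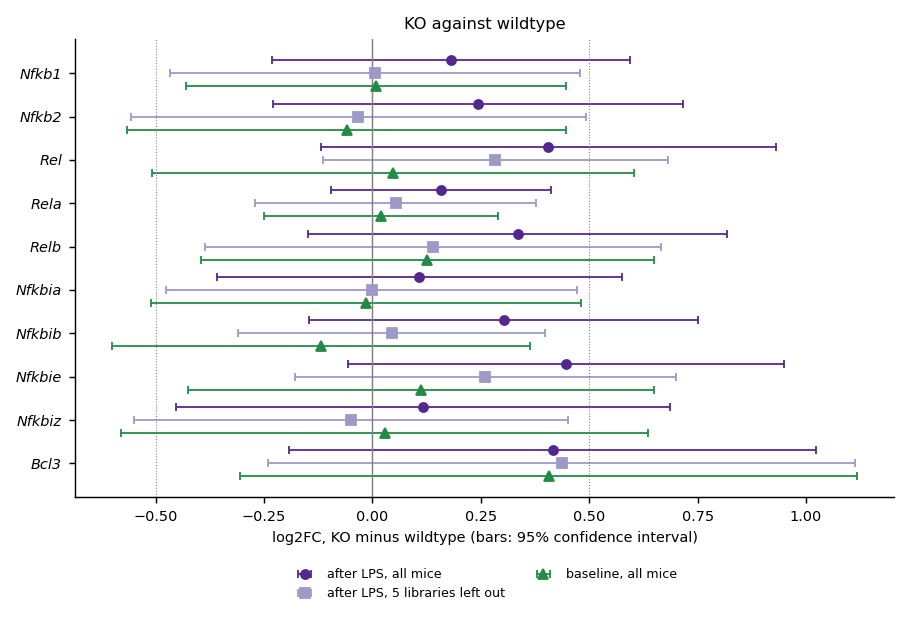
log2FC of KO against wildtype with 95% confidence intervals, after LPS with all mice (circles), after LPS without the 5 libraries that stood apart (squares) and at baseline (triangles), with dotted lines at -0.5 and 0.5. Every interval spans 0, and the values after LPS lie between 0.11 and 0.45 with all mice.

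At baseline 0 of the 10 genes passed the same threshold in edgeR, where 0.8% of all genes did, and 0 did in DESeq2. The edgeR count without the limit on fold change was also 0, against 1.04% of all genes. The groups overlapped for all 10, and 0.427% of all genes lay higher and 0.544% lower in KO without overlap. The log2FC of KO against wildtype ran from -0.12 (*Nfkbib*) to 0.41 (*Bcl3*, 95% confidence interval -0.31 to 1.12), with 7 positive values. *Bcl3* is the gene with the fewest reads of the 10, and its baseline groups overlapped. Without wildtype baseline replicate 2, the lowest of its group for 9 of the 10 genes, 2 of 10 values were positive and *Bcl3* was 0.23. Without the 5 libraries that stood apart, 2 of 10 were positive as well and *Bcl3* was 0.14. *Nfkbib* was -0.05 without KO baseline replicate 2. The smallest difference was that of *Nfkb1*, 0.01 (95% confidence interval -0.43 to 0.45).

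The response to LPS was also compared between genotypes directly, as the interaction of genotype and treatment. At an adjusted p-value under 0.05 the response differed for 0 of 10 in edgeR and for 0 of 10 in DESeq2, and edgeR found it for 0% of all genes. At an unadjusted p-value under 0.05 the count was 0 of 10 in edgeR, against 0.961% of all genes. The fitted response of the KO mice was larger by 0.01 (*Bcl3*) to 0.42 (*Nfkbib*) on the log2 scale. Without KO LPS replicate 5 these differences were smaller for all 10 genes, with 0.14 for *Nfkbib* and *Nfkbie*, 0.16 for *Rel* and 0.11 for *Nfkb2*, and they were below 0 for *Nfkbia* (-0.02), *Nfkbiz* (-0.13) and *Bcl3* (-0.06). Without KO LPS replicate 3 *Bcl3* was at -0.34. For *Nfkbib* the difference was 0.42 (95% confidence interval -0.24 to 1.08), for *Rel* 0.36 (95% confidence interval -0.40 to 1.12) and for *Bcl3* 0.01 (95% confidence interval -0.998 to 1.02). *Rel* passed the threshold for LPS in KO and not in wildtype, but the difference between its responses did not pass (adjusted p = 0.99993 in edgeR).

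Mice of the same group differed more in most of these genes after LPS than at baseline, which is given as a description. The SD of log2 CPM had a median over the 10 genes of 0.18 in both wildtype and KO mice at baseline, and of 0.40 in wildtype and 0.49 in KO mice after LPS. In wildtype mice *Bcl3* (0.50 at baseline and 0.38 after LPS) and *Rela* (0.14 and 0.12) went the other way. For all genes with a level at least as high the medians were 0.16 and 0.15 at baseline and 0.18 and 0.25 after LPS. The genes tended to be high or low in the same mice. Wildtype replicate 5 had the highest level of its LPS group for 8 of the 10 genes and KO replicate 5 for 9. The lowest levels were those of KO replicate 1 for 9 genes after LPS and of wildtype replicate 2 for 9 genes at baseline, both among the libraries with high markers of other brain cells. Among the LPS-treated wildtype mice, replicate 2 was lowest for 6 genes and replicate 1, with the lowest such markers, for the other 4. With their marker score as a covariate in the fit, 10 of 10 genes rose after LPS in wildtype and 10 of 10 in KO.

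The other genes of the pathway changed less as a group. Of 56 genes written down by role, 55 were tested, and 19 rose and 2 fell after LPS in wildtype mice, 20 rose and 2 fell in KO mice (18.4% and 17.4% of all genes in wildtype, 20.1% and 19% in KO). Their median log2FC was 0.28 in wildtype and 0.31 in KO. Of the 5 IκB kinases and related kinases, *Ikbke*, an inducible relative of the classical kinases, rose from 2.45, 3.52, 2.10 and 3.10 CPM to 117, 85.0, 116, 224 and 249 CPM in wildtype mice, a log2FC of 5.82 (SE 0.53, adjusted p = 6.45e-08). In KO mice its log2FC was 5.21 (SE 0.46, adjusted p = 3.4e-08). The subunits of the IκB kinase complex itself did not pass the threshold in either genotype, with wildtype values of 0.36 for *Chuk* (IKKα), 0.34 for *Ikbkb* (IKKβ) and -0.39 for *Ikbkg* (NEMO). In KO mice they were 0.45, 0.36 and -0.49. There *Chuk* passed without LPS replicate 1 (0.54). *Ikbkg* lay at the fold threshold and passed with no filter on low counts (-0.52), with at least 10 counts in every library (-0.55), with the replicate number as a block (-0.50), without the 5 libraries that stood apart (-0.50), and without LPS replicate 1 (-0.52), LPS replicate 2 (-0.55) or baseline replicate 1, 3 or 4 (-0.51 in each). The other IκB relatives *Nfkbid* and *Nfkbil1* did not pass in either genotype. In wildtype mice they were at 0.31 (SE 0.32, adjusted p = 0.491) and -0.16 (SE 0.17, adjusted p = 0.517), and in KO mice at 0.49 and -0.21. *Nfkbid*, which like *Nfkbiz* and *Bcl3* encodes a nuclear IκB protein, was after LPS at 195, 111, 139.5, 106 and 133 CPM against 134, 83.2, 129.5 and 96.2 CPM at baseline in wildtype mice, with overlap.

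Of 7 genes of the noncanonical arm, 5 rose and none fell in each genotype. Over all genes 18.4% rose and 17.4% fell in wildtype, and 20.1% and 19% in KO. *Cd40*, a receptor that drives this arm, went from 0.938, 2.00, 1.38 and 1.61 CPM to 23.4, 17.6, 34.6, 69.3 and 77.2 CPM in wildtype mice, a log2FC of 4.90 (SE 0.51, adjusted p = 3.61e-07). *Birc3* (cIAP2), a ubiquitin ligase, had a log2FC of 2.30 (SE 0.26, adjusted p = 9.06e-07), its partner *Traf3* 1.14 (SE 0.13, adjusted p = 1.45e-06) and the lymphotoxin β receptor gene *Ltbr* 0.50 (SE 0.09, adjusted p = 0.000181), the last at the fold threshold. *Ltbr* stayed under it in DESeq2 and with the size factors of DESeq2 in edgeR (0.48 in each). The same held with no filter on low counts (0.46), with at least 10 counts in every library (0.43) and with only the 2 groups compared (0.46). It was also under the threshold without the 5 libraries that stood apart (0.47) and without baseline replicate 2 or LPS replicate 3 (0.48 in each). Of 14 negative regulators, 7 rose and none fell in each genotype, against the same shares of all genes. *Tnfaip3* (A20), the deubiquitinase that ends signalling to the IκB kinases, rose to 1465, 1091, 1879, 3824 and 3827 CPM from 206, 129, 217 and 176 CPM in wildtype mice, a log2FC of 3.73 (SE 0.41, adjusted p = 7.11e-07). Its binding partner *Tnip1* had 2.84 (SE 0.31, adjusted p = 6.24e-07), *N4bp1* 1.86 (SE 0.23, adjusted p = 2.59e-06) and the RNase *Zc3h12a* (regnase 1) 2.27 (SE 0.29, adjusted p = 4.06e-06).

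Of 16 upstream adaptors and kinases, 4 rose and 2 fell in wildtype mice, and 5 rose and 2 fell in KO mice. Over all genes 18.4% rose and 17.4% fell in wildtype, and 20.1% and 19% in KO, which is not far from these counts. *Traf1* rose with a log2FC of 4.53 (SE 0.44, adjusted p = 1.37e-07), the paracaspase gene *Malt1* with 1.75 (SE 0.41, adjusted p = 0.00186) and *Rnf31* (HOIP), the catalytic subunit of the linear ubiquitin ligase, with 1.03 (SE 0.12, adjusted p = 1.5e-06) in wildtype. *Traf6*, the ubiquitin ligase that carries the signal of Toll-like receptors, rose with 0.62, and *Traf5* fell by 0.60, both named here after their values were seen. Between KO and wildtype after LPS, 1 of the 55 genes passed the threshold in edgeR (1.31% of all genes), and 0 did when the libraries that stood apart were left out or when these 2 groups were fitted alone. Without wildtype LPS replicate 2, 4 or 5, 1 pathway gene fell in wildtype instead of 2, and in DESeq2 4 fell. At baseline 0 of the 55 passed (0.8% of all genes). At an unadjusted p-value under 0.05 in edgeR, without the limit on fold change, the count was 4 of 55 after LPS (2.57% of all genes). It was 1 of 55 at baseline (1.04% of all genes). Of 11 tested genes for degradation and modification, 2 rose and none fell in each genotype, so that rises were about as frequent as over all genes. Among the 11, *Prmt5*, an arginine methyltransferase, rose in both genotypes, with 1.51 (SE 0.14, adjusted p = 5.39e-08) in KO. *Btrc* (β-TrCP), which marks IκBα for degradation, was at -0.33 in wildtype, under the fold threshold.

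**Figure D5:**
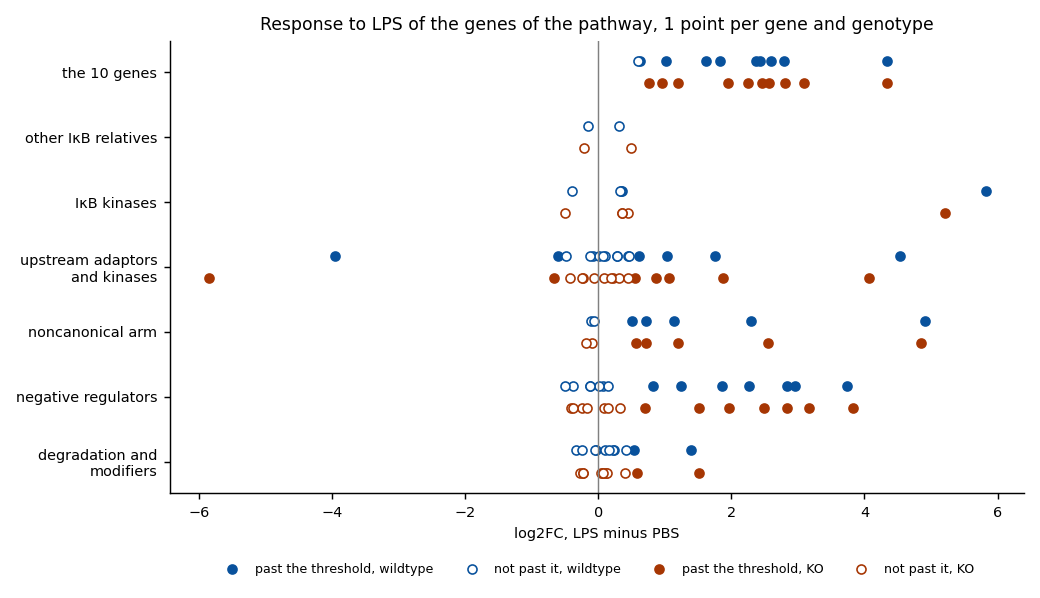
log2FC of LPS against baseline of the 10 genes and of the other pathway genes by role, 1 point per gene, wildtype in the upper and KO in the lower line of each role, filled where the adjusted p-value was under 0.05 and |log2FC| at least 0.5. Outside the 10 genes, the values reach 5.82 for *Ikbke* in wildtype and 5.21 in KO.

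A list of 24 genes commonly described as NF-κB targets, cytokines, chemokines, adhesion molecules and survival genes among them, had 23 genes that rose and none that fell after LPS in wildtype mice, and 24 and none in KO mice, with a median log2FC of 3.51 and 3.61. Of all genes 18.4% rose and 17.4% fell in wildtype, and 20.1% and 19% in KO. *Bcl2a1b*, which encodes a survival protein, was the exception in wildtype (0.85, adjusted p = 0.078 in edgeR). Between KO and wildtype after LPS 1 of the 24, *Cd83*, a surface molecule of activated antigen-presenting cells, passed the threshold (log2FC 0.73, adjusted p = 1 in edgeR), against 1.31% of all genes, and 0 did at baseline, against 0.8%. *Cd83* did not pass without wildtype LPS replicate 1 (0.63) or 2 (0.60) or KO LPS replicate 3 (0.58) or 5 (0.56).

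Genes with a pattern like that of each member that rose in both genotypes were sought over all genes tested, by the mean absolute difference of mean-centred log2 CPM over the 19 libraries. *Nfkbia* and *Nfkbiz* were nearest to each other of all genes, at 0.124. The next was *Osm*, the gene of the cytokine oncostatin M, for *Nfkbia* (0.135) and *Ifrd1* for *Nfkbiz* (0.148). The nearest genes were *Itga5* (an integrin chain) and *Mapkapk2* (a stress kinase) for *Nfkb2* (0.147 and 0.176), *Slc11a2* (an iron transporter) and *Icam1* (an adhesion molecule) for *Relb* (0.126 and 0.138), and *Slc15a3* and *Pgs1* for *Nfkbib* (0.148 and 0.15). For *Nfkbie* they were *Spata13* and *Plagl2* (0.151 and 0.156), for *Nfkb1* *Zeb2* and *Orai2* (0.092 each), and for *Rela* *Mul1* and *Ppp1r18* (0.074 and 0.087). *Bcl3* had the least similar neighbours, the transcription factor gene *Nfil3* (0.275) and *Abtb2* (0.316). Within the gene group, *Nfkb2* and *Relb* were nearest to each other (0.197), as were *Nfkbib* and *Nfkbie* (0.215). This is a description, since genes that change little lie closer on this scale than genes that change much.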

How the data were processed

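RNA of CD11b+ brain cells of 19 mice was used, 1 library per mouse. Per the labels and the methods of the study, the authors trimmed paired 75 bp reads (Cutadapt), then used STAR 2.7.9a for alignment to GRCm39 and gene counting by Ensembl release 108. The deposited values are raw counts per gene, not normalized, and every column was assigned to a mouse by its name. No 2 libraries of a group agreed within sampling noise.

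The main test was run with edgeR 4.0.16 under R 4.3.3 (filterByExpr with a minimum of 10 counts and 15 in total, TMM, quasi-likelihood fit of 4 groups, Benjamini-Hochberg adjustment over 18739 genes) and, as an alternative, DESeq2 1.42.0. The scripts were tested on simulated counts. Thresholds were an adjusted p-value under 0.05 with |log2FC| of at least 0.5 for LPS, the same with an unadjusted p-value for KO against wildtype, and an adjusted p-value under 0.05 for the interaction. Names, coordinates and exon lengths came from GENCODE M39. Named pathway genes were up to 4 per role by p-value in wildtype, plus any past the genotype threshold. The genes, lists and tests were chosen with earlier results of these data known. Alternatives were other size factors, filters, the 2 groups compared alone, the replicate number as a block, a covariate of other brain cell markers and each library left out. Leaving out 5 libraries together was chosen after seeing the data. The protein sequences planned for comparison were not used here, and the symbol Skp1a of the pathway lists was not matched. Some genes that the rule names are not reported here.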

Additional observations from a re-analysis of the deposited data

Results flagged for a closer look

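Each gene was checked in each of the 4 groups for a library far from the others of its group (Dixon's test), and 4 of these 40 checks were positive, where chance gives about 1 in 20. Wildtype replicate 2 at baseline had 47.9 CPM of *Nfkb2*, below the other 3 mice of its group. The same library had 19.6 CPM of *Relb*, again below the others, and it held 13806 CPM of other brain cell markers. KO replicate 4 at baseline had 24.3 CPM of *Relb*, below the other 4 mice. KO replicate 5 after LPS had 705 CPM of *Nfkb2*, above the other 4 mice, and is the library with the low correlation to its group. No cause was tested for these values.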

How the results depend on the processing

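The increase with LPS held for the same 9 genes in wildtype and all 10 in KO mice under every alternative run, and *Rel* in wildtype passed in 3 of them. The labels do not say that mice with the same replicate number, which are different animals, belong together. Correlations of same-numbered mice ran from -0.042 to 0.576 between LPS-treated and baseline mice of a genotype. Between KO and wildtype mice they ran from -0.573 to 0.3. Whether same-numbered mice shared a batch was not tested. With the number as a replicate block, 9 and 10 genes rose, 0 fell, and 0 differed between genotypes after LPS, at baseline or in response. Of the other pathway genes 19 rose and 2 fell in wildtype, 20 rose and 3 fell in KO and 1 differed after LPS.

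Between KO and wildtype mice after LPS, 0 to 2 of the 10 genes passed when 1 mouse was left out. Of the other pathway genes, 4 fell in wildtype with DESeq2 and 1 to 3 when 1 mouse was left out. Those that differed after LPS numbered 0 in place of 1 with at least 10 counts in every library, with only the 2 groups compared, without the 5 libraries and by adjusted p-value. With transcript in place of exon length, 2 of 10 genes kept their rank in wildtype mice after LPS and *Nfkb2* had 19.16% of the subunit RNA in place of 24.99%, and *Nfkb1* 33.53% in place of 18.29%.

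Small differences between genotypes changed sign. Without the 5 libraries, an alternative chosen after seeing the data, the log2FC of KO against wildtype after LPS was -0.0326 for *Nfkb2*, -0.0016 for *Nfkbia* and -0.049 for *Nfkbiz*. At baseline it was -0.1063 for *Nfkb1*, -0.1142 for *Rel*, -0.0721 for *Rela*, -0.0443 for *Relb* and -0.0715 for *Nfkbie*, and the difference in response was -0.0576 for *Nfkbiz*. With the replicate block the baseline value was -0.0723 for *Nfkb1*, -0.0375 for *Rel*, -0.0235 for *Rela* and -0.1334 for *Nfkbiz*, and the difference in response was -0.0561 for *Bcl3*. The baseline value of *Nfkb1* was -0.0097 with DESeq2 and with its size factors, -0.02 with no filter and -0.0201 with at least 10 counts, and that of *Rela* was -0.0058 and -0.0075 under those filters.

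With 1 mouse left out, the value after LPS ran from -0.0339 to 0.2463 for *Nfkbia* and from -0.1026 to 0.2963 for *Nfkbiz*. At baseline it ran from -0.0571 to 0.0688 for *Nfkb1*, -0.1358 to 0.0197 for *Nfkb2*, -0.093 to 0.1451 for *Rel*, -0.0103 to 0.0927 for *Rela*, -0.1687 to 0.1053 for *Nfkbia*, -0.0394 to 0.2463 for *Nfkbie* and -0.0872 to 0.1731 for *Nfkbiz*. The difference in response ran from 0.1447 to 0.5541 for *Nfkbib*, 0.1557 to 0.5387 for *Rel*, -0.0186 to 0.276 for *Nfkbia*, -0.1304 to 0.2585 for *Nfkbiz* and -0.3374 to 0.1879 for *Bcl3*. The cause was not tested for any of these changes. Depth limits chiefly *Bcl3* at baseline.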
